A study of Mus musculus with 41 samples.

Results

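Tumours of mice that had been off doxycycline for 6 days were compared with tumours of mice still given it, called day 0. Both groups are melanomas of the iBIP strain, in which doxycycline in the drinking water turns on a mutant BRAF transgene and its withdrawal turns the transgene off. As published, iBIP mice also carry deletions of tumour suppressor genes, including Ink4a/Arf, in their melanocytes, so both groups share these. The labels name the strain only and give no age, sex or allele. The members were chosen by the label for days off doxycycline, which gave 4 tumours at day 6 and 4 at day 0, 8 of the 41 tumours in the series. From each, a small piece was taken after the skin had been trimmed away, kept in a preservative for RNA, and hybridised to an Affymetrix whole-genome mouse array. The labels leave unstated whether the tumours of a group were from different mice, so the tests measure only a spread between samples. The 4 arrays per group limit the precision of every difference.

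Mutant BRAF drives the kinases MEK and ERK, and ERK switches on transcription factors, growth genes and its own inhibitors, the dual-specificity phosphatases (DUSP) and the Sprouty and Spred proteins. These inhibitor genes are widely used as a readout of the pathway in melanoma. A tumour piece also holds immune, vessel, nerve and connective tissue cells, and mast cells and macrophages are normal residents of skin. In whole tissue, more cells of a type and more RNA per cell cannot be told apart.

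Values are log2 intensities on a scale shared by all arrays, and a difference is the day 6 mean minus the day 0 mean with its standard error (SE), so that a difference of 1 is a 2-fold change. Of 18194 genes with their own probe sets, 14319 passed a filter on dim probe sets and were tested in 1 limma fit over all 41 tumours. The SE and p of a gene thus draw on its spread within all groups of that fit, not on the 8 tumours compared alone. A gene with tight values at day 0 and day 6 can therefore have a large SE. A call needed a p adjusted by Benjamini-Hochberg to lie under 0.05. The ratio of 3′ to 5′ signal of Gapdh, which grows as RNA degrades, averaged 0.45 ± 0.12 (SD, n = 4) at day 0 and -0.11 ± 0.10 (n = 4) at day 6 on the log2 scale, with no overlap. Correlations between arrays of a group were 0.949 to 0.975 at day 0 and 0.932 to 0.990 at day 6, and no 2 arrays were identical. Tumours are written as D0r1 to D0r4 (day 0, replicates 1 to 4) and D6r1 to D6r4 (day 6), and values are listed in that order. D6r2 had the lowest correlations with the other day 6 arrays.

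The 2 groups also differ in the levels of the spike-in controls on their arrays, and the labels do not say how the arrays were run. Limits chosen here on the log2 levels of the controls bioD (12) and dap (9.4) divide the series into 3 sets. All 4 day 6 tumours lie in set 1 (bioD under its limit) and all 4 day 0 tumours in set 3 (neither control under its limit). No comparison of day 6 with day 0 within a set was therefore possible. A fit with the set as a block (an added term for each set) can still be made, but it links the sets only through 1 tumour of day 1 and 2 of days 63 to 163, and its SEs were larger by a median factor of 2.11. Each result below comes from the fit without the block. The part of the spike-in set and of RNA quality in any one difference cannot be told apart from the 6 days off the drug.

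Of the 14319 genes, 1747 (12.2%) were called, 822 of them higher (5.74%) and 925 lower (6.46%) at day 6. Among these, 344 were more than 2-fold higher and 174 more than 2-fold lower. The median difference over all genes tested was -0.00080. The 4 day 6 values all lay above the 4 day 0 values in 1500 genes (10.5%) and all below in 1772 (12.4%), and 1420 of the called genes were among these. With the block 70 genes (0.489%) were called, 34 higher (0.237%) and 36 lower (0.251%). The sign was the same with and without the block in 1485 of the 1747 called genes, and 30 genes were called in both. Every other call given below between these groups was lost with the block, also where no value with the block is printed. Without D0r4 the number called was 832. A gene is written below as having risen or fallen where it was called, and the tumours are named whose removal, 1 at a time, ended the call. The number of called members of each list is to be read against the 12.2% called among all genes tested.

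**Figure D1:**
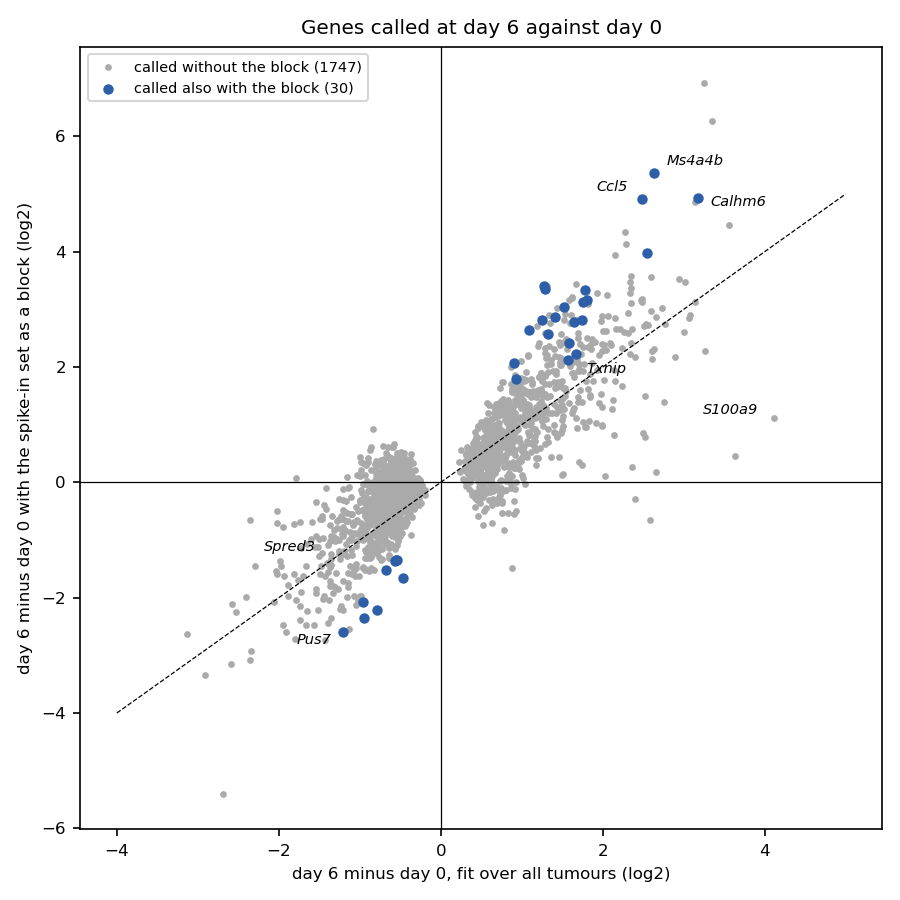
Day 6 minus day 0 difference of each of the 1747 called genes in the fit over all tumours (x axis, log2) and in the fit blocked on spike-in set (y axis, log2), with the line of equal values dashed. The 30 genes called in both fits are in blue, and S100a9 and Spred3, called only without the block, lie nearer to 0 on the y axis than on the x axis.

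The transcriptional output of the MAPK pathway was lower at day 6. Of 34 tested genes on a list of MAPK targets, 17 fell and 0 rose, with a median difference of -0.91 against -0.00080 over all genes tested. The mean level of the list ran from 9.44 to 10.00 in the day 0 tumours and from 8.54 to 8.90 in the day 6 tumours, so the groups did not overlap. Leaving out single tumours gave 13 to 17 called lower. With the block the median was -0.84 and 0 were called.

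Among the phosphatases, all 3 tested fell, Dusp4 by 1.88 ± 0.45 (SE, adjusted p = 0.00571), Dusp5 by 1.54 ± 0.26 (adjusted p = 0.000287) and Dusp6, which acts on ERK in the cytoplasm, by 1.15 ± 0.25 (adjusted p = 0.00244). Dusp5, which acts on ERK in the nucleus, was at 9.62, 8.71, 8.71 and 9.68 in the day 0 tumours and at 7.61, 7.39, 7.84 and 7.74 in the day 6 tumours. Every day 6 value of Dusp5 lay below every day 0 value. Of the Sprouty and Spred inhibitors, 5 of 6 fell. The exception was Spry1, at -0.20 ± 0.26 (adjusted p = 0.66). Spry4 was at 8.20, 7.66, 7.32 and 7.95 at day 0 and at 6.57, 6.29, 6.66 and 6.71 at day 6. It fell by 1.22 ± 0.22 (adjusted p = 0.000487), although 1 of its 4 probe sets was at 0.03. Spred2 was between 9.01 and 9.23 at day 0 and between 7.84 and 8.23 at day 6, and fell by 1.07 ± 0.22 (adjusted p = 0.00139), against -0.69 with the block. Spred3 was nearly constant at day 6, from 6.04 to 6.09, against 7.45 to 8.61 at day 0. These calls held without any single tumour.

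Etv4, an ETS transcription factor gene that ERK induces, was at 7.99, 8.23, 8.32 and 8.33 at day 0 and at 6.97, 6.67, 7.01 and 6.78 at day 6. All day 6 tumours were low, and Etv4 fell by 1.36 ± 0.19 (adjusted p = 3.93e-05), against -1.02 (adjusted p = 0.228) with the block. Its relative Etv5 was at -0.62 ± 0.29 and was not called (adjusted p = 0.154). Of 10 immediate early genes, which respond to ERK within minutes, 2 fell, with a median of -0.49 (-0.84 with the block). These were Fosl1 (-1.21 ± 0.35, adjusted p = 0.0214) and Egr1 (-1.19 ± 0.38, adjusted p = 0.0324), while Fos (-0.13), Fosl2 (-0.05) and Myc (-0.39) were not called. The Fosl1 and Egr1 calls both ended without D0r1 or D0r4 or D6r3, that of Fosl1 also without D6r1 and that of Egr1 without D6r4 (adjusted p from 0.0565 to 0.120). Among effector genes, 6 of 13 fell. Ccnd1, which encodes cyclin D1, was at 12.28, 12.36, 12.81 and 12.73 at day 0 and at 11.57, 10.75, 11.91 and 11.36 at day 6, with no overlap. It fell by 1.15 ± 0.28 (adjusted p = 0.00689), against -0.66 (adjusted p = 0.654) with the block. Phlda1 fell by 1.60 ± 0.33 (adjusted p = 0.00155), against -0.97 with the block.

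**Figure D2:**
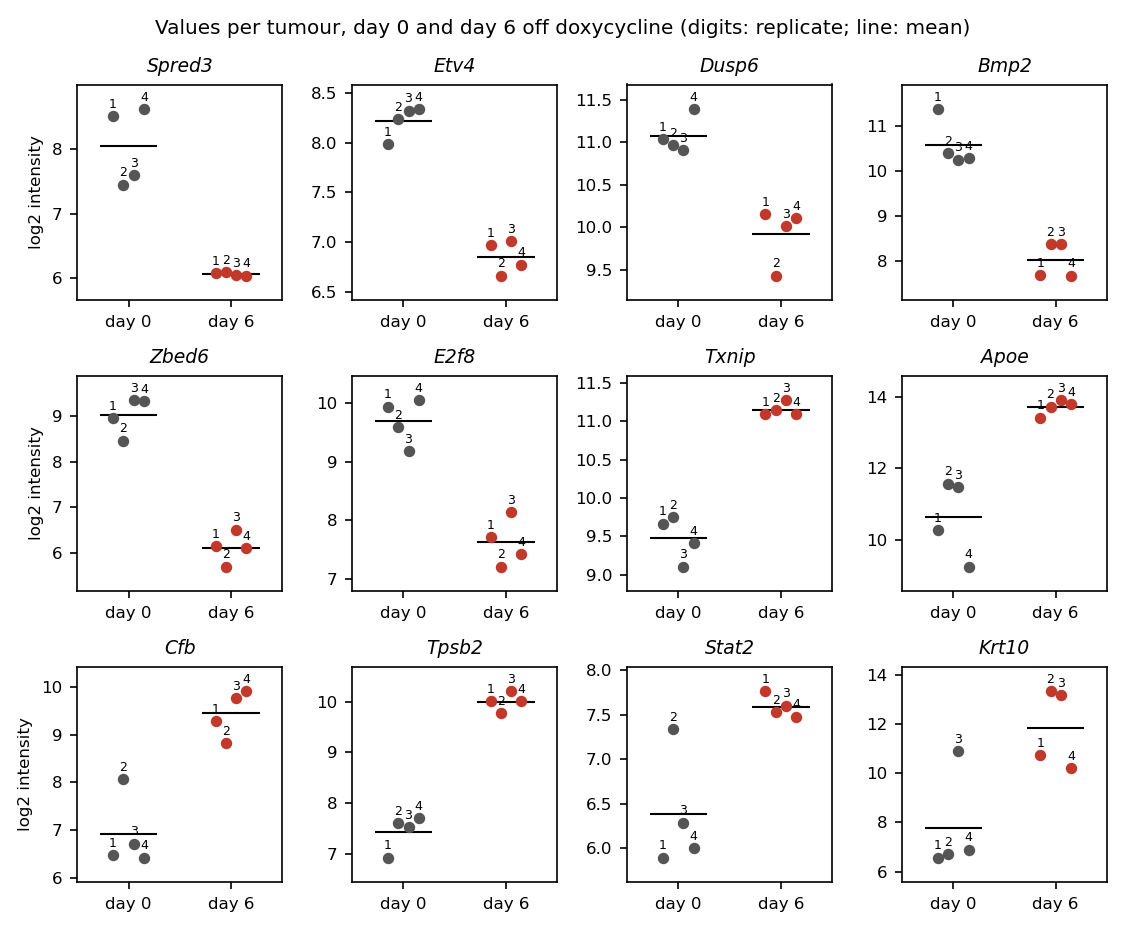
Log2 intensity of 12 genes in each of the 4 day 0 tumours (grey) and the 4 day 6 tumours (red), with the replicate number at each point and the group mean as a line. For Krt10 the highest day 0 tumour (10.89) lies above the lowest day 6 tumour (10.21), and in the other 11 panels the groups do not overlap.

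Mouse Braf had 9 probe sets, with differences from -1.09 to 0.54. The one of highest intensity was at 8.37 to 8.56 at day 0 and at 8.66 to 8.90 at day 6 and was not called (0.31 ± 0.12, adjusted p = 0.0852; -0.12 with the block). The lowest difference came from a probe set at 7.51 to 7.97 at day 0 and at 6.38 to 6.91 at day 6. No source used here says which of these probe sets reads the transgene, so these values do not check the labels. Cdkn2a, the Ink4a/Arf locus, was under the filter in both groups, at 4.97 to 5.13 and 4.85 to 5.01.

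Other signalling lists had a few members called each. Txnip, which encodes a thioredoxin-binding brake on glucose uptake, was at 9.67, 9.75, 9.11 and 9.41 at day 0 and at 11.09, 11.15, 11.27 and 11.09 at day 6. The day 6 values were close together and all above day 0. It rose by 1.67 ± 0.25 (adjusted p = 7.8e-05) and was called with the block too (2.22, adjusted p = 0.0484). It belongs to a list of genes induced by FOXO transcription factors, of which 3 of 20 rose and 1 fell (20% called, against 12.2% of all genes). The others that rose were Sesn1 (1.06 ± 0.25, adjusted p = 0.00463) and Pik3ip1, an inhibitor of PI3K (1.01). Irs2 fell (from a mean of 7.35 to one of 6.34, adjusted p = 0.00959). The Irs2 call ended without D0r1 (adjusted p = 0.0603), and that of Pik3ip1 without D0r1 or D0r4 or D6r1, D6r3 or D6r4 (0.0575 to 0.115).

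Of 12 ligands of receptor tyrosine kinases, 4 fell and 2 rose. Hbegf, a ligand of the EGF receptor, had a highest day 6 value of 8.52, under every day 0 value, and fell by 1.79 ± 0.38 (adjusted p = 0.00235). Pdgfa fell by 1.03 ± 0.21 (adjusted p = 0.00136). Gas6, a ligand of the receptor Axl, was at 7.95, 8.44, 8.47 and 7.01 at day 0 and at 9.18, 10.85, 9.86 and 9.23 at day 6. It rose by 1.81 ± 0.45 (adjusted p = 0.00709), a call that ended without D0r4 (0.0511), and its other probe set was at -0.000069. The remaining called ligands, Ereg, Vegfa and Igf1, each lost their calls without at least 5 of the 8 tumours in turn. Of 15 receptor genes, only Kit was called, and it is given with the mast cell genes below. None of these ligands was called with the block, where Hbegf was at -2.03 and Pdgfa at -0.65.

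In the TGF-beta and BMP list 6 of 19 fell and 1 rose (36.8% called). Bmp2, which encodes a secreted ligand, was at 11.36, 10.39, 10.24 and 10.28 at day 0 and at 7.69, 8.38, 8.38 and 7.68 at day 6. The groups did not overlap, and Bmp2 fell by 2.53 ± 0.50 (adjusted p = 0.00125; -2.24, adjusted p = 0.342, with the block). Bmp7 fell by 0.70 ± 0.14 (adjusted p = 0.00101), Smad7, an inhibitor of the pathway, by a log2 difference of -0.79 ± 0.15 (adjusted p = 0.00116) and Bambi, a decoy receptor, by one of -1.05 ± 0.27 (adjusted p = 0.0105). Grem1, which encodes a secreted BMP antagonist, was at 13.38, 11.69, 10.59 and 12.03 at day 0 and at 8.86, 8.46, 8.99 and 10.62 at day 6. D6r4 thus lay just above D0r3, and the fall of 2.69 ± 0.82 (adjusted p = 0.0276) ended without D0r1 or D0r4 or D6r1, D6r2 or D6r3 (0.0628 to 0.110) and was at -5.40 with the block. The YAP and TAZ list had 4 of 15 lower and 1 higher (33.3% called), with the DNA-binding partners Tead1 (-0.96 ± 0.23, adjusted p = 0.00595) and Tead4 (-0.70 ± 0.13, adjusted p = 0.000963) among the lower. The lower count became 2 without D0r4 or D6r1, the higher count became 0 without D0r1, D0r3, D6r2, D6r3 or D6r4, and with the block 0 were called, with Tead1 at -1.49. In the WNT list 2 of 18 fell (11.1%, against 12.2% of all genes tested), Notum (-1.11) and Lef1 (-0.90). The Notum call ended without D0r1 or D0r2 or D6r1 and the Lef1 call without D0r4 or D6r2 (0.0539 to 0.111).

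The 12 largest falls also held genes outside these lists. Zbed6, which encodes a DNA-binding protein of transposon origin, was at 8.96, 8.47, 9.35 and 9.33 at day 0 and at 6.14, 5.70, 6.51 and 6.11 at day 6. It fell by 2.91 ± 0.46 (adjusted p = 0.000164), against -3.34 (adjusted p = 0.105) with the block. E2f8, an atypical E2F factor, was between 9.18 and 10.04 at day 0 and between 7.22 and 8.14 at day 6 and fell by 2.06 ± 0.36 (adjusted p = 0.000454). The transporter genes Slc9a2 and Slc14a1 fell by 2.34 ± 0.40 (adjusted p = 0.000379) and 2.29 ± 0.46 (adjusted p = 0.00136), the latter at -1.46 with the block, and Samd5 fell by 2.35 ± 0.45 (adjusted p = 0.0009). Prkg2, a kinase that responds to cyclic GMP, fell by 2.35 ± 0.54 (adjusted p = 0.00442) but was at -0.65 with the block. A second, dimmer probe set gave a smaller difference for Samd5 (-0.29), E2f8 (-0.34), Cnr1 (-0.32) and Zbed6 (-0.82), as did the smallest of 3 for Prkg2 (-0.58). The neurofilament gene Nefm fell by 2.60 ± 0.60 (adjusted p = 0.0045). Nefl (-3.14 ± 0.94), its partner in the filament, Nppb, which encodes a natriuretic peptide (-2.58 ± 0.82), and the cannabinoid receptor gene Cnr1 (-2.41 ± 0.65) ended their calls without D0r1 or D0r4, and Nefl and Nppb also without D6r1 or D6r2 (adjusted p from 0.0522 to 0.174).

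Cell division genes were mostly lower without passing the test. In the list of mitosis genes 25 of 25 were tested, 24 had differences below 0 and the median was -0.50. With the block the median was -1.02, 25 were below 0 and 0 were called. Only 1 gene fell (4%, under the 12.2% of all genes), the transcription factor Foxm1 (-0.35 ± 0.10, adjusted p = 0.0194; -0.01 with the block). That call ended without D0r3 or D0r4 or D6r1 (0.0606 to 0.0821). Mki67, the marker of cycling cells, was at 9.62, 10.05, 10.48 and 10.60 at day 0 and at 10.25, 9.14, 10.00 and 9.55 at day 6. The groups overlapped, and the difference of -0.45 ± 0.39 had an adjusted p of 0.488 (-1.13, adjusted p = 0.562, with the block). In the DNA replication list, with a median of -0.34, 1 of 26 fell (3.85%, under the 12.2% of all genes). This was cyclin E1 (Ccne1, -0.64 ± 0.18, adjusted p = 0.0152). That call ended without D0r4 or D6r2 (0.0632 and 0.0679). Among regulators of entry into the cycle, Rbl2, which encodes the pocket protein p130, rose by 0.85 ± 0.19 (adjusted p = 0.00375). Cdkn2b, which encodes the CDK4 and CDK6 inhibitor p15, fell by 1.20 ± 0.24 (adjusted p = 0.00124), from 9.21 to 9.69 at day 0 to 8.08 to 8.54 at day 6, against -0.64 (adjusted p = 0.601) with the block.

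Growth and metabolism genes showed small shifts. Of 26 genes for making ribosomes or driven by MYC 5 fell and 0 rose (19.2% called), with a median of -0.38 against -0.04 with the block. Odc1, the first enzyme of polyamine synthesis and a classical MYC target, was at 12.96, 12.10, 11.45 and 12.64 at day 0 and at 10.93, 10.57, 10.91 and 10.78 at day 6. It fell by 1.49 ± 0.33 (adjusted p = 0.00307), against -0.63 with the block. The count of 5 became 2 without D0r4 or D6r4 and 3 without D6r1 or D6r2. Of 20 genes of the ATF4 response to amino acid shortage, with a median of -0.45 (-0.40 with the block), 6 fell (30%) and 0 rose. These were the enzyme genes Asns (-1.02), Mthfd2 (-0.80), Shmt2 (-0.71) and Aldh18a1 (-0.90) and the amino acid transporter genes Slc7a5 (-1.18) and Slc7a1 (-0.77). Without D0r4 or D6r4 the count was 2, without D0r1 or D6r1 it was 3, and with the block Shmt2 was at 0.34, Mthfd2 at -0.34, Slc7a5 at -0.52 and Slc7a1 at -0.31. Glycolysis had 2 of 21 lower (9.52%, against 12.2% of all genes tested), Hk1 (-0.94 ± 0.25, 0.13 with the block) and Pgk1 (-0.48 ± 0.13). Those calls ended without D0r4 (0.0511) and D6r2 (0.0609) respectively. Hypoxia targets had 2 of 20 lower, Vegfa and Plod2 (10%, under the 12.2% of all genes), and 0 without D0r1, D0r4, D6r1, D6r2 or D6r3. The respiratory chain had 1 of 27 higher (3.7%, under the 12.2% of all genes), Sdhd (0.42 ± 0.14, adjusted p = 0.0407; -0.27 with the block). Of the 8 tumours, 6 ended that call when left out. Cholesterol synthesis had 0 of 19 called in limma, and at an unadjusted p under 0.05 had 1 higher and 1 lower.

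Melanocyte genes were used to check the tissue label. The lineage factors Sox10 and Mitf and the factor Pax3 were measured well above the filter level of 5.67 in all 8 tumours. The pigment genes were dim in both groups, with Mlana at 5.03 to 5.59 and 5.37 to 5.70, Tyrp1 at 5.03 to 5.95 and 4.98 to 6.19, Dct at 5.67 to 6.89 and 5.95 to 6.71 and Tyr under the filter. Of 10 tested pigment genes 0 were called. Pax3, which specifies melanocytes, was at 8.79, 8.93, 8.94 and 8.66 at day 0 and at 7.44, 7.33, 7.46 and 7.54 at day 6, tight groups more than 1 unit apart. It fell by 1.39 ± 0.41 (adjusted p = 0.0233; -2.44, adjusted p = 0.17, with the block), Tfap2a fell by 0.96 ± 0.29 and Sox10 by 1.04 ± 0.32, while Mitf rose by 1.01 ± 0.33 (adjusted p = 0.038). Sox10 was at 0.13 with the block, and its 3 probe sets ran from -1.04 to 0.19. The other probe set of Mitf was at 0.12, and the 3 of Pax3 ran from -1.39 to -0.34. All of these calls ended without D0r4 (adjusted p up to 0.157 over the tumours that ended them). D0r3 (Pax3, Sox10 and Mitf), D0r1 (Tfap2a and Mitf), D6r1 (Pax3 and Tfap2a), D6r2 (Sox10 and Mitf), D6r3 (Mitf) and D6r4 (Tfap2a and Mitf) ended them too. Nes, which encodes the neural progenitor filament nestin, fell by 1.30 ± 0.25 (adjusted p = 0.000972), a call that held without any single tumour. It went from 9.96 to 10.93 at day 0 to 8.79 to 9.47 at day 6. Its list, of neural crest and invasive state genes, had 1 of 18 lower and 1 higher (11.1% called, under the 12.2% of all genes). The higher was Zeb2 (0.86 ± 0.26, adjusted p = 0.0241; -0.10 with the block), a call that ended without D0r1 or D0r4 or D6r1 or D6r4 (0.0540 to 0.120).

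Among cell death genes, the BCL2 family had 2 of 15 higher (13.3%, against 12.2% of all genes tested). These were the BH3-only genes Bmf (1.10 ± 0.32, adjusted p = 0.0196) and Bid (0.58 ± 0.19, adjusted p = 0.0385), while Bcl2l11, which encodes BIM, was at -0.91 and not called. The Bmf call ended without D0r3 or D0r4 or D6r2, and the Bid call without 6 of the 8 tumours in turn (adjusted p from 0.0548 to 0.153). Fas, the death receptor, was between 6.30 and 6.84 at day 0 and between 7.08 and 7.72 at day 6 and rose by 0.87 ± 0.16 (adjusted p = 0.000748). It is on the list of p53 targets, which had 2 of 18 higher and 2 lower (22.2% called), with Cdkn1a at -0.94 and not called. The 2 lower were Plk2, given below, and Aen, and their count was 0 without any tumour but D0r2 or D6r4, where it was 1.

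**Figure D3:**
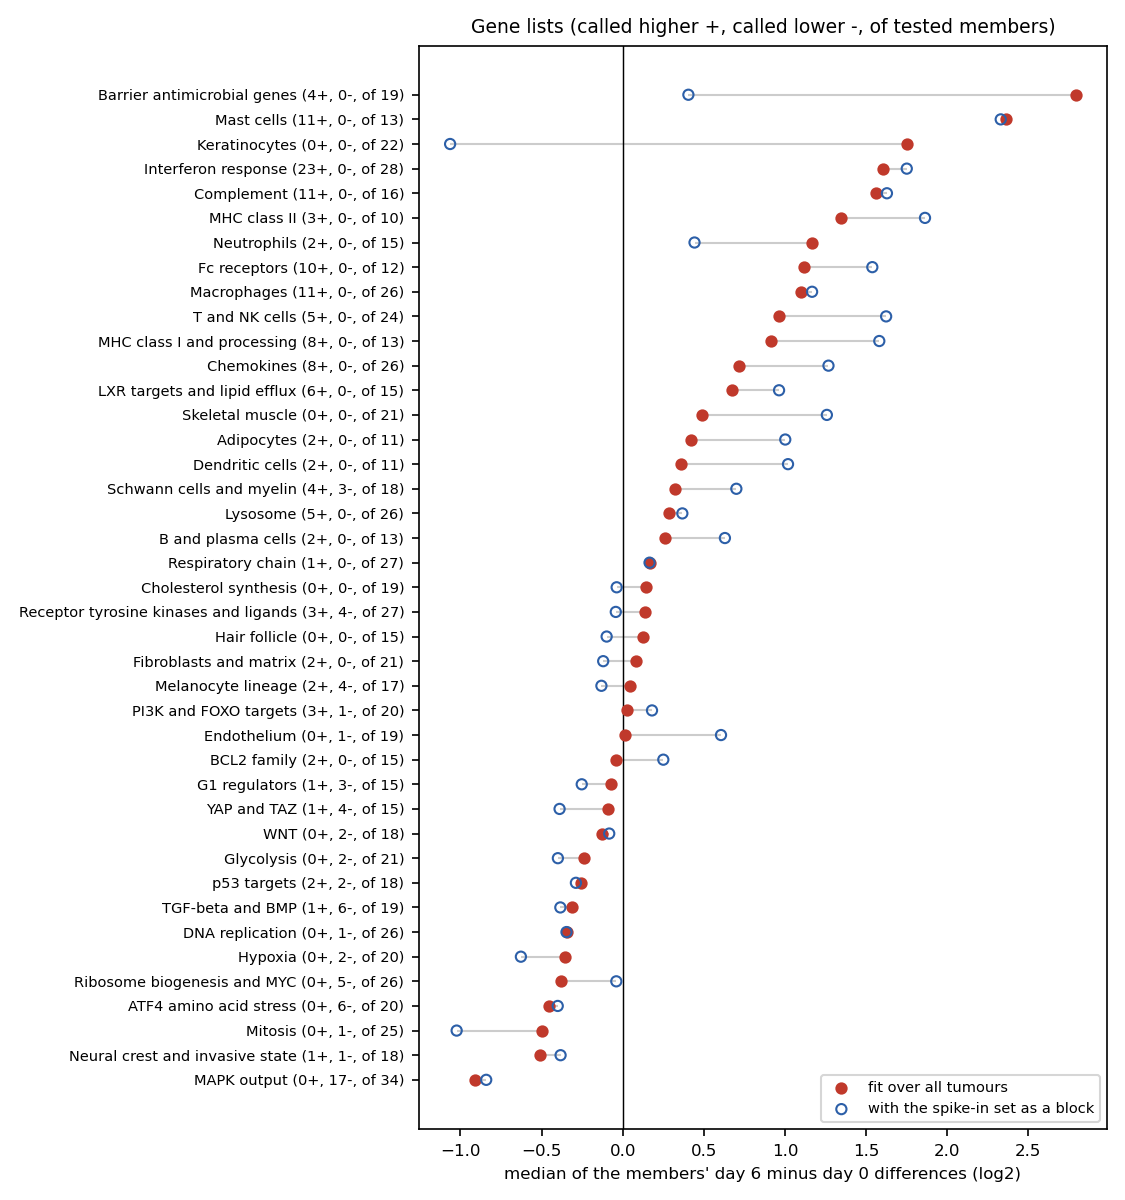
Median day 6 minus day 0 difference (x axis, log2) of the tested members of each gene list of at least 10 tested genes, in the fit over all tumours (filled) and blocked on spike-in set (open); labels give the members called higher and lower. Mast cell and complement medians are close in both fits, while the keratinocyte median goes from 1.75 to -1.06.

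Genes induced by interferon held the most called members of the 42 lists. Of 28 tested, 23 rose and 0 fell, with a median of 1.61, in all of its roles: 10 of 13 antiviral genes, 7 of 8 GTPases of cell-autonomous immunity and 6 of 7 regulators and chemokines. With the block the median was 1.75 and 0 were called. The groups nevertheless overlapped in most members, and only Stat2, Irf8 and Irf9 had all day 6 values above all day 0 values, the Irf8 call ending without any tumour but D0r1 (adjusted p from 0.0520 to 0.208). The mean level of the list was 7.53, 9.93, 7.95 and 8.28 in the day 0 tumours and 10.46, 9.20, 10.03 and 10.22 in the day 6 tumours. D0r2 lay within the day 6 range, and D6r2 was the lowest of its group. The count of 23 fell to 6 without D6r1, 9 without D0r1, 10 without D0r4, 11 without D6r4, 13 without D0r3 and 14 without D6r3, and was 26 without D0r2.

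Stat2 and Irf9, factors that carry the interferon signal to DNA, kept their calls without any single tumour, as did Ifih1, Gbp7 and Irgm2. The call of another factor gene, Irf7, ended without D0r4 (adjusted p = 0.0544). Stat2 was at 5.90, 7.34, 6.29 and 6.00 at day 0 and at 7.76, 7.53, 7.60 and 7.48 at day 6, and rose by 1.21 ± 0.26 (adjusted p = 0.00223; 1.14, adjusted p = 0.345, with the block). Irf9, its partner in the complex that type I interferon assembles, was at 6.90, 7.86, 7.10 and 7.32 at day 0 and at 8.39, 8.11, 8.10 and 8.12 at day 6. It rose by 0.88 ± 0.18 (adjusted p = 0.00138). Irgm2, an immunity-related GTPase, rose by 1.98 ± 0.46 (adjusted p = 0.00459), with D0r2 (9.93) above D6r2 (9.62). The guanylate-binding gene Gbp8, among the 12 largest rises, was at 4.76, 6.78, 4.69 and 5.69 at day 0 and at 8.81, 6.65, 9.73 and 10.12 at day 6, so that only D6r2 lay within the day 0 range. Its rise of 3.35 ± 0.90 (adjusted p = 0.0129) ended without D6r4 (0.055) and was at 6.27 (adjusted p = 0.0949) with the block.

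The interferon-stimulated response element is a short promoter motif bound by that complex and by IRF factors. Its core, GAAA followed after any 2 bases by GAAA, on either strand, was searched in the 250 bases before the start of each gene in RefSeq's promoters of GRCm38.p6. Of the called interferon genes, 19 had a promoter there and 11 held the motif (57.9%), against 12 of 22 tested members (54.5%), 3.12% of 11461 tested genes and 3.46% of 27025 promoters in all. The promoters of Stat2, at chr10:128270248-128270497 on the plus strand, and Irgm2, at chr11:58214727-58214976 on the plus strand, are shown because both genes rose and hold the motif. That of B2m, the light chain of MHC class I, at chr2:122147437-122147686 on the plus strand, is shown as the 1 called member of the MHC class I list with it. Capitals mark the match, read on the opposite strand in Stat2. A match describes the letters only.

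Stat2: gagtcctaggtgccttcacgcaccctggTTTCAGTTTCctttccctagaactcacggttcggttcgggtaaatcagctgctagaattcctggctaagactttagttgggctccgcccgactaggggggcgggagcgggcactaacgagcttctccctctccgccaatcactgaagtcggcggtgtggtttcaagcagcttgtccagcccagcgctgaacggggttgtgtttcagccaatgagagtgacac
Irgm2: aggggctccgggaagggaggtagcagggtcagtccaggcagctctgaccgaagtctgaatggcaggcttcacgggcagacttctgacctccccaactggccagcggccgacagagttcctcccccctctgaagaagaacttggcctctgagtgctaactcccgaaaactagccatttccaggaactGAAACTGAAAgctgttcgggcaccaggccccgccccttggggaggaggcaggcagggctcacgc
B2m: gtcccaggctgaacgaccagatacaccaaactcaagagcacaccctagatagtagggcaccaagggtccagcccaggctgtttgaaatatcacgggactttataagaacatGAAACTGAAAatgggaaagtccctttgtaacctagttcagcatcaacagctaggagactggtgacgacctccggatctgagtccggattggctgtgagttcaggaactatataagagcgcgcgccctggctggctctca

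MHC class I molecules present peptides from inside the cell to CD8 T cells. B2m was at 12.70, 13.46, 12.50 and 13.11 at day 0 and at 13.90, 13.54, 13.82 and 13.92 at day 6, and rose by 0.85 ± 0.15 (adjusted p = 0.000455). The heavy chain genes H2-D1 and H2-K1 rose by 0.99 ± 0.18 (adjusted p = 0.000508) and 1.06 ± 0.19 (adjusted p = 0.000627). The 9 probe sets of H2-D1 ran from 0.06 to 1.74. In all 3 genes the groups did not overlap and the calls held without any single tumour. Of 10 genes that process or load the peptides, 5 rose, Tapbp, Psmb8, Psmb9, Psmb10 and Erap1, by 0.82 to 1.48, but each of these calls ended without D0r1 or D0r3 or D6r1 or D6r4 in turn, and some without other tumours (adjusted p from 0.0561 to 0.152). With the block Tapbp, Psmb8, Psmb9 and Psmb10 were at 1.59 to 2.58 and were not called. The 8 called members of the list became 3 without D0r1 or D0r3 or D6r1 or D6r4, and 5 without D6r3. The MHC class II list had 3 of 10 higher, 6 without D0r1, 4 without D6r2 and 1 without any other tumour, and 0 with the block.

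Complement genes were higher at day 6 with groups that mostly did not overlap. Of 16 tested, 11 rose and 0 fell, with a median of 1.56, and 8 to 10 rose when single tumours were left out. With the block the median was 1.63 and 0 were called. The mean level of the list was between 7.54 and 8.55 at day 0 and between 9.39 and 9.68 at day 6. C1ra, a protease of the first complement component, was at 8.51, 8.90, 8.01 and 7.61 at day 0 and at 10.09, 10.83, 10.94 and 10.53 at day 6. It rose by 2.34 ± 0.36 (adjusted p = 9.02e-05; 2.23, adjusted p = 0.156, with the block). Serping1, the inhibitor of that protease, rose by 2.26 ± 0.39 (adjusted p = 0.000444) from 8.48 to 9.86 at day 0 to 10.86 to 12.14 at day 6. C1qb (2.11 ± 0.38, adjusted p = 0.000554), C2 (1.76 ± 0.35, adjusted p = 0.00138) and the anaphylatoxin receptor gene C3ar1 (1.84 ± 0.34, adjusted p = 0.000683) rose too. Cfi, which degrades activated complement, was at 0.10 and not called.

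Of 26 chemokine and receptor genes 8 rose and 0 fell. Cxcl13, which attracts B cells, was at 5.24, 6.84, 8.97 and 5.66 at day 0 and at 9.84, 8.93, 10.77 and 11.39 at day 6, with D6r2 just below D0r3. It rose by 3.56 ± 0.86 (adjusted p = 0.00644; 4.46, adjusted p = 0.251, with the block). Cxcl12, made by stromal cells, was at 8.44, 9.06, 8.48 and 8.40 at day 0 and at 10.37, 11.80, 10.92 and 10.64 at day 6. It rose by 2.34 ± 0.43 (adjusted p = 0.000616), although the lowest of its 3 probe sets was at -0.07. Ccl5, which attracts T cells, rose by 2.49 ± 0.61 (adjusted p = 0.00695) and was called with the block (4.91, adjusted p = 0.0359). Cxcl9, a T cell attractant induced by interferon gamma, rose by 3.25 ± 0.95 (adjusted p = 0.0217), a call that ended without D0r1 or D0r3 or D6r1, D6r3 or D6r4 (0.0519 to 0.0906) and was at 6.93 (adjusted p = 0.0874) with the block. The list's count became 4 without D6r1 or D6r4 and 5 without D0r4.

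Macrophage markers were higher in part. Of 26 tested, 11 rose and 0 fell, with a median of 1.10 against 1.17, and 0 called, with the block. Single tumours left out gave 9 to 11. The mean level was between 8.52 and 9.58 at day 0 and between 10.00 and 10.60 at day 6. Lyz2, which encodes lysozyme, was at 11.36, 11.92, 11.03 and 9.96 at day 0 and at 13.01, 13.23, 13.29 and 13.25 at day 6, with the day 6 values close together. It rose by 2.12 ± 0.31 (adjusted p = 4.65e-05), against 1.44 (adjusted p = 0.19) with the block. Mpeg1, a pore protein of macrophages, rose by 2.35 ± 0.45 (adjusted p = 0.00084), Adgre1, which encodes F4/80, by 1.69 ± 0.41 (adjusted p = 0.00689) and Csf1r, the growth factor receptor of the lineage, by 1.07 ± 0.26 (adjusted p = 0.00639). With the block Mpeg1 was at 3.58 and Adgre1 at 2.58. The scavenger receptor genes Mrc1 (0.10 ± 0.30) and Cd163 (0.09 ± 0.96), found on tissue-resident macrophages, were not called. Cybb, the catalytic subunit of the phagocyte oxidase, was between 6.47 and 8.82 at day 0 and between 10.13 and 11.54 at day 6 and rose by 3.02 ± 0.48 (adjusted p = 0.000165). Of 12 Fc receptor and adaptor genes 10 rose and 0 fell, which became 4 without D0r4 and 6 without D6r4. The 4 were Fcgr1, Fcgr4, Fcer1a and Ms4a2, of which Fcer1a and Ms4a2 are also on the mast cell list below. Fcgr4 rose by 2.06 ± 0.50 (adjusted p = 0.00672), against 3.24 with the block.

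Genes of lipid efflux and of lysosomal proteases moved the same way. Of 15 targets of the sterol sensor LXR, 6 rose and 0 fell, Apoe, Apoc1, Abca1, Mylip, Lpl and Smpdl3a, with a median of 0.67, and 3 without D0r4. The Abca1 and Mylip calls ended without that tumour, and the Lpl call without it or D6r2, D6r3 or D6r4 (adjusted p from 0.0600 to 0.170), and with the block Abca1 and Mylip were both at 0.26. Smpdl3a, a phosphodiesterase, was at 7.89, 8.36, 8.70 and 8.10 at day 0 and at 9.92, 10.02, 10.21 and 10.01 at day 6. It rose by 1.78 ± 0.34 (adjusted p = 0.000815), against 0.96 (adjusted p = 0.526) with the block. The fatty acid genes Scd1 (0.67), Fasn (0.24) and Srebf1 (-0.20) were not called. In the lysosome list 5 of 26 rose (19.2%), all of them among the 9 proteases, Ctss (1.11 ± 0.20, adjusted p = 0.000554), Ctsz (1.12 ± 0.22, adjusted p = 0.00101), Ctsh (1.42), Lgmn (1.27) and Ctsa (0.61). The Ctsa call ended without 6 of the 8 tumours in turn, and of 8 hydrolases and 9 genes of the membrane and proton pump 0 were called. Apoe and Ctss are also on the macrophage list, as are C1qb, C1qc and Itgam, which rose and are counted in the complement list too.

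Mast cell genes rose together. Of 13 tested, 11 rose and 0 fell, with a median of 2.36, and 9 or 10 rose without any single tumour. The mean level was 6.65, 7.05, 7.11 and 7.30 in the day 0 tumours and 9.16, 8.91, 8.91 and 9.15 in the day 6 tumours. The groups were tight and lay over 1 log2 unit apart. The granule proteases Mcpt4 and Cma1 rose by 2.75 ± 0.61 (adjusted p = 0.00323) and 2.61 ± 0.61 (adjusted p = 0.00504). The chains of the high-affinity IgE receptor, Fcer1a and Ms4a2, rose by 2.73 ± 0.61 (adjusted p = 0.00358) and 2.23 ± 0.50 (adjusted p = 0.0036). Ms4a2 was at 5.37, 5.99, 6.38 and 6.44 at day 0 and at 8.45, 8.06, 8.19 and 8.40 at day 6, so its day 0 level was near the filter level of 5.67. Hdc, which makes histamine, rose by 2.04 ± 0.51 (adjusted p = 0.00755) and Tph1, which makes serotonin, by 2.36 ± 0.59 (adjusted p = 0.00741). Kit, the stem cell factor receptor of mast cells and of melanocytes, rose by 1.49 ± 0.48 (adjusted p = 0.0344), a call that ended without any tumour but D0r1 (adjusted p up to 0.113). Mcpt8, a protease of basophils, was at -0.45 ± 0.40 and was not called. With the block the median of the list was 2.33, Mcpt4 was at 1.39 and 0 members were called.

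Skin markers did not pass the test. Of 22 keratinocyte genes 0 were called in limma, and 6 were higher at an unadjusted p under 0.05, with a median of 1.75. The mean level was 6.99, 6.65, 8.43 and 8.79 at day 0 and 8.51, 10.49, 10.25 and 8.37 at day 6. D6r2 and D6r3 were the highest, while D6r1 and D6r4 lay within the range of day 0. The keratin gene Krt10 was at 6.57, 6.71, 10.89 and 6.89 at day 0 and at 10.74, 13.33, 13.17 and 10.21 at day 6. Its difference was 4.10 ± 1.44 (adjusted p = 0.0562), and -2.11 with the block, under which the list had a median of -1.06 and 20 of 22 members below 0. Of 19 antimicrobial and stress genes of barrier tissue 4 rose, S100a8, S100a9, Reg3g and Saa3, with a median of 2.79 and 0.41 with the block. The count became 2 without D0r3 or D0r4 or D6r4. The Saa3 call ended without any of these 3 tumours (adjusted p from 0.0666 to 0.0985), and the S100a8 call without any tumour but D0r1 (0.0535 to 0.145). S100a9 was at 9.45, 6.54, 7.88 and 10.09 at day 0 and at 12.30, 11.91, 13.75 and 12.46 at day 6, with no overlap. With the block S100a9 was at 1.12 (adjusted p = 0.855) and S100a8 at 0.27. Among the largest rises, Sprr2i, a gene of the keratinocyte envelope, was at 5.45 to 5.95 at day 0 and at 7.79, 10.61, 11.01 and 8.03 at day 6, high in the tumours with the highest keratinocyte level, and was at 0.46 with the block. Its call ended without any tumour but D6r1 or D6r4 (0.0624 to 0.124). The part of skin left on the tumour in these rises was not tested. S100a8 and S100a9 are also neutrophil genes, and of 15 neutrophil markers these 2 were the only ones called (13.3%, against 12.2% of all genes tested).

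**Figure D4:**
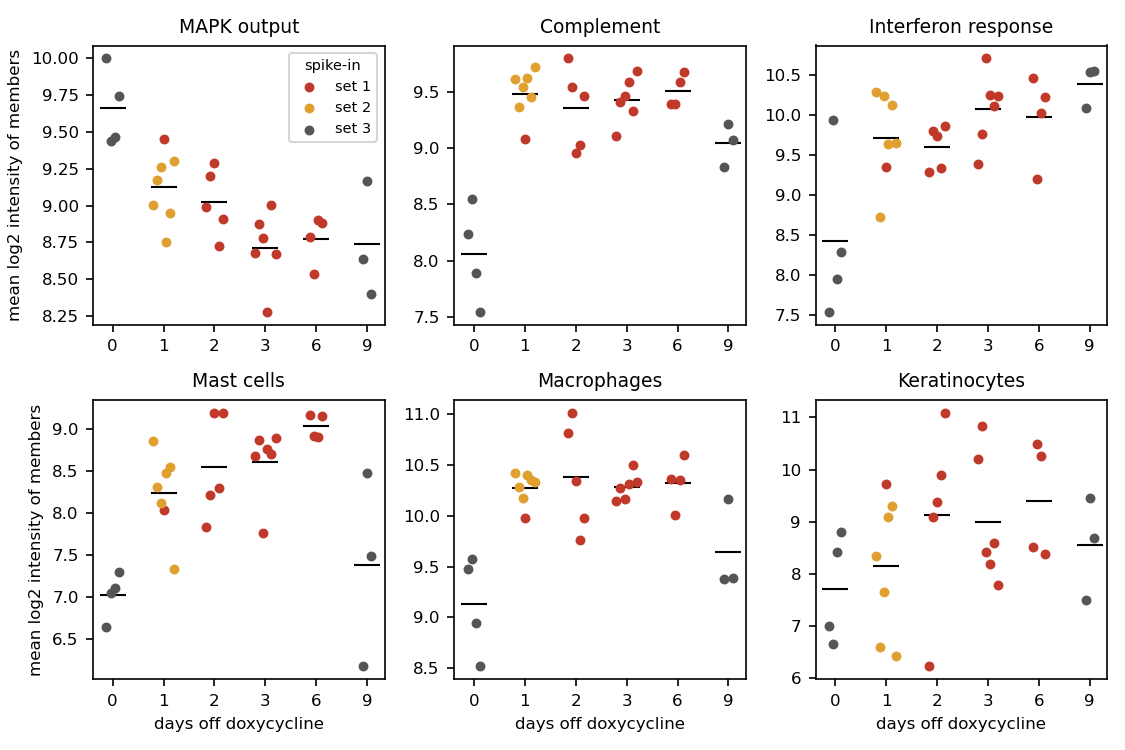
Mean log2 intensity over the members of 6 gene lists in each tumour of days 0, 1, 2, 3, 6 and 9 off doxycycline, coloured by spike-in set, with group means as lines. The mast cell level is between 8.91 and 9.16 at day 6 and between 6.65 and 7.30 at day 0, and all day 6 tumours are of set 1 while day 0 and day 9 are of set 3.

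Of 24 T and NK cell genes 5 rose and 0 fell, with a median of 0.96 and 1.62 with the block, and the count was 1 without D0r3 or D0r4 or D6r1 and 2 without D6r3 or D6r4. Klrk1, which encodes the activating receptor NKG2D, was at most 7.70 (D0r2) at day 0 and at 9.39, 7.67, 9.24 and 9.24 at day 6. Only D6r2 lay below D0r2, and Klrk1 rose by 2.49 ± 0.56 (adjusted p = 0.00351). Cd3e, a chain of the T cell receptor complex, was at 6.91 to 7.63 at day 0 and at 7.07 to 7.32 at day 6 (-0.07 ± 0.19). Of 13 B cell genes 2 rose (15.4%) and of 11 dendritic cell genes 2 rose (18.2%), against 12.2% of all genes tested that were called. Without D0r4 both counts were 0. The dendritic cell count was also 0 without D0r3 or D6r1, D6r3 or D6r4, and both counts were at most 1 without most of the other tumours.

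Some stromal lists had shares of called members under the 12.2% of all genes, 9.52% for fibroblasts, 5.26% for endothelium and 0% for skeletal muscle. The adipocyte list had 2 of 11 higher (18.2%), Dgat2 (1.10 ± 0.31, adjusted p = 0.0192) and Lpl, given above. Its count was 0 without D0r4 or D6r3 and 0 with the block. Collagen genes such as Col1a1 (-0.10), Col1a2 (-0.01) and Col3a1 (0.11) were not called, while 2 of 21 fibroblast genes rose. One was Pi16, a marker of fibroblasts around vessels, at 6.34, 6.63, 6.52 and 6.57 at day 0 and at 8.10, 9.85, 8.06 and 8.14 at day 6. It rose by 2.02 ± 0.47 (adjusted p = 0.00423; 1.78, adjusted p = 0.416, with the block), although its other probe set was at 0.18. The other, Mfap5 (2.61 ± 0.73, adjusted p = 0.0165), ended its call without D0r1 or D0r4 or D6r2 or D6r3 (0.0505 to 0.0830). Endothelial genes had 1 of 19 lower, the VEGF receptor gene Flt1 (-0.90; -0.05 with the block), a call that ended without 6 of the 8 tumours in turn, and skeletal muscle had 0 of 21 called and 1 lower at an unadjusted p under 0.05. Of 18 Schwann cell and myelin genes 4 rose and 3 fell (38.9% called). The potassium channel gene Kcna1 rose by 3.01 ± 0.69 (adjusted p = 0.00405), Mal, a myelin protein gene, by 2.47 ± 0.66 (adjusted p = 0.012) and Art3 by 1.21 ± 0.30 (adjusted p = 0.00696). The smallest differences among their probe sets were 0.07 for Kcna1, 0.88 for Mal and 0.16 for Art3, and Mag (0.12) and Egr2 (-0.19), which are specific to myelinating cells, were not called. The 3 lower were Sox10, Ncmap and Dhh, and their count was 0 without D0r3 or D6r2 and 1 without D0r1, D0r4, D6r1 or D6r4. With the block Ncmap was at -0.25, Dhh at -0.55 and 0 members of the list were called.

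The 30 genes called both without and with the block were 21 higher and 9 lower, and all had the same sign in both fits. Calhm6, an interferon-induced channel gene, was at 4.98, 7.07, 5.19 and 5.03 at day 0 and at 8.95, 7.43, 9.42 and 9.16 at day 6. It had the largest rise of the 30, at 3.17 ± 0.57 (adjusted p = 0.000528). With the block it was at 4.94 (adjusted p = 0.0395). Ms4a4b, expressed on T cells, rose by 2.63 ± 0.63 (adjusted p = 0.00571) and Il18bp, which encodes a decoy that binds interleukin 18, by 2.55 ± 0.46 (adjusted p = 0.000547). Ptpn22, a phosphatase that restrains T cell receptor signalling, rose by 1.76 ± 0.35 (adjusted p = 0.00136), Sla, an adaptor that also dampens that receptor, by 1.78 ± 0.41 (adjusted p = 0.00414) and Gpr65, a proton-sensing receptor gene, by 1.81 ± 0.39 (adjusted p = 0.00232). With the block these 3 were at 3.13, 3.34 and 3.16. Klhl6, of the B lineage, rose by 1.74 ± 0.31 (adjusted p = 0.000508) and Pld4, a nuclease of myeloid cells, by 1.64 ± 0.34 (adjusted p = 0.00153). Pus7, a pseudouridine synthase gene and the largest fall of the 30, was at 8.65, 8.83, 9.88 and 10.37 at day 0 and at 8.19, 8.22, 8.39 and 8.07 at day 6. Its fall of 1.21 ± 0.31 (adjusted p = 0.00963) ended without D0r4 (0.0764) and was at -2.59 with the block. Plk2 fell by 0.95 ± 0.31 (adjusted p = 0.0409; -2.36, adjusted p = 0.0286, with the block), a call that ended without 6 of the 8 tumours in turn. Agreement of both fits still rests on the few tumours that link the sets.

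Day 6 was also set against its neighbours in time. Against day 3, which lies in the same spike-in set and has 6 tumours, limma called 0 of 14319 genes (0%), with a smallest adjusted p of 0.999935. At an unadjusted p under 0.05 there were 205 genes, fewer than that limit gives by chance. The median of the MAPK list was 0.08 above day 3 and that of the mast cell list 0.44 above it. Day 9, with 3 tumours, shares the day 0 tumours as its reference, so its values are only set beside those of day 6. The Gapdh ratio was 0.88, 0.45 and 2.34 in the day 9 tumours, against 0.28 to 0.58 at day 0 and -0.22 to 0.01 at day 6. Against day 0, day 9 had 653 called genes (4.56%), 380 higher (2.65%) and 273 lower (1.91%). At day 9 the medians were -0.98 for the MAPK list with 13 lower, 1.96 for interferon genes with 22 higher, 0.94 for complement with 5 higher, 0.40 for macrophages with 4 higher and 0.44 for mast cells with 0 higher. Tpsb2, a mast cell tryptase gene, was 2.56 ± 0.44 above day 0 at day 6 and 0.20 above it at day 9 (adjusted p = 0.858).

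The direct comparison of day 6 with day 9, made after the data had been seen, called 20 genes (0.140%), 12 higher at day 6 (0.0838%) and 8 lower (0.0559%). Among the higher were Tpsb2 (2.37 ± 0.48, adjusted p = 0.0362), the RNA sensor gene Tlr8 (1.13 ± 0.17, adjusted p = 0.0015) and the complement receptor gene C5ar1 (0.85, adjusted p = 0.0362). The other mast cell genes were not called, and the median of the 13 was 1.61 higher at day 6, with Mcpt4 at 2.85 ± 0.66 (adjusted p = 0.0596). The lowest mast cell level at day 9 was 6.18 and the highest 8.48, so the 3 day 9 tumours spread more widely than the 4 of day 6. Day 6 and day 9 lie in different spike-in sets and also differ in their Gapdh ratios. The part of RNA quality in these differences was not tested. With the block 0 genes were called, and 10 were called with arrays centred on their medians.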

How the data were processed

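RNA of 41 tumours was measured on 1-colour arrays. The authors deposited 1 normalised intensity per probe set on a linear scale, and the submitters' processing notes name MAS5 and RMA; which made these values is not given in the sources used here. Values were taken as log2(intensity + 16) and quantile normalised. Of 45101 probe sets, 34958 had 1 gene symbol, 932 several and 9211 none; each gene took its probe set of highest mean. Genes above the 40th percentile of intensity in at least 3 arrays were tested with limma 3.58.1 in R 4.3.3, in 1 fit of 9 groups, with Benjamini-Hochberg adjustment. The fit was tested on simulated data. Alternatives were the offset, normalisation, filter, array weights, spike-in block, Gapdh ratio and single tumours left out. Promoters are RefSeq's for GRCm38.p6. Genes named are the 12 largest called rises and falls, the 2 called members of lowest p per list and direction, the 10 largest differences called with and without the block, and a fixed set of pathway and lineage genes; any others were chosen after their values were seen. The members and lists were chosen with earlier results of these data known.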

Additional observations from a re-analysis of the deposited data

Results flagged for a closer look

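In 17 of 226 groups of 4 tumours, taken over the named genes, 1 tumour lay far from the other 3 by Dixon's test; chance gives about 1 in 20. At day 0, replicate 1 was high for Bmp2 (11.36, others 10.24 to 10.39). Replicate 2 was high for Calhm6 (7.07, others 4.98 to 5.19) and Cxcl12 (9.06, others 8.40 to 8.48) and low for Pgk1 (13.13, others 13.28 to 13.29). Replicate 3 was low for Nop2 (8.20, others 8.52 to 8.57) and Irf8 (7.39, others 8.65 to 8.89), and replicate 4 was high for Ccne1 (8.14, others 7.89 to 7.91). At day 6, replicate 1 was high for Irf9 (8.39, others 8.10 to 8.12). Replicate 2 was high for Bmf (8.46, others 6.99 to 7.19), Pi16 (9.85, others 8.06 to 8.14) and Flt1 (7.73, others 6.42 to 6.58). It was low for Ccne1 (6.93, others 7.43 to 7.45), Klrk1 (7.67, others 9.24 to 9.39) and Sox10 (8.30, others 9.46 to 9.65). Replicate 3 was high for Cdkn2b (8.54, others 8.08 to 8.11) and S100a8 (13.62, others 12.24 to 12.47), and replicate 4 for Plk2 (9.72, others 9.30 to 9.35).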

How the results depend on the processing

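The 1747 genes called between day 6 and day 0 became 4411 probe sets when every probe set was tested, 3971 with array weights, 70 with the spike-in block and 1 with a 2-fold limit. Leaving out single tumours gave 832 to 1716, lowest without day 0 replicate 4, and the other settings gave 1568 to 2294. Non-overlapping genes numbered 3650 to 4601 with single tumours left out. For day 6 against day 9, the 20 genes became 0 with the block and 10 with median centring. Of 113 named genes, 15 kept their call status with the block, 91 lost their call and 7 turned sign: Zeb2 (-0.10), Nop2 (0.25), Hk1 (0.13), Sdhd (-0.27), Shmt2 (0.34), Sox10 (0.13) and Braf (-0.12). Dct, not called, was at 0.19 with the Gapdh ratio as a covariate and at -0.22 to 0.19 (0.0075 without day 6 replicate 1) with single tumours left out. The cause of these moves was not tested. No paired analysis was possible because the replicate numbers follow the order of the samples only.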
